A study of Mus musculus with 18 samples.

Results

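The complement system is a cascade of plasma and tissue proteins that mark targets for clearance and release small inflammatory peptides. The genes described here are C1qa, C1qb, C1qc, C2, C3, C4b, Cfb, Cfp and C3ar1, which were chosen by symbol and make up 9 of the 52093 symbols in the deposited files. Each had 1 transcript row. Their RNA was measured by RNA-seq in 18 samples of wild-type male C57BL/6 mice that were 16 weeks old and had spent 12 weeks on HFD, a diet rich in fat. There were 6 samples of mature adipocytes from inguinal white adipose tissue (iWAT adipocytes), 6 of mature adipocytes from epididymal white adipose tissue (eWAT adipocytes), called iWAT and eWAT below, and 6 of intact brown adipose tissue (BAT). Adipocytes were the floating cells after collagenase digestion, whereas BAT was frozen whole and therefore held every cell type of the tissue. All animals shared the genotype and the diet, so the only factor compared was the tissue, and preparation differed with it for BAT. The labels give 2 substrain spellings and 1 treatment field that names regular chow against the sample titles, and samples were grouped by their titles. Samples are named here by tissue and by the number in the title, and nothing in the labels says that equal numbers in different tissues mark the same mouse.

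In the classical pathway, C1q binds to immune complexes or dying cells, and its proteases cleave C4 and C2 to form an enzyme that splits C3. C1q is built from A, B and C chains encoded by C1qa, C1qb and C1qc, and macrophages are a well-known source. In the alternative pathway, factor B (Cfb) joins activated C3, factor D (Cfd, also called adipsin) cleaves factor B, and properdin (Cfp) stabilises the resulting enzyme. Cleavage of C3 releases C3a, whose receptor C3ar1 is a Gi-coupled G protein-coupled receptor best known from myeloid cells. Adipose tissue is a known site of C3, factor B and factor D production.

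All 9 genes lay on the minus strand in the mm9 build used for the files, and each row overlapped a protein-coding gene of the same symbol in GENCODE vM1. The C1q genes sat side by side within 18.7 kb of chromosome 4: C1qb (Entrez 12260) at 136436044-136442110, C1qc (12262) at 136445717-136448980 and C1qa (12259) at 136451831-136454759. On chromosome 17, C4b (12268) was at 34865325-34880842, Cfb (14962) at 34993319-34999459 and C2 (12263) at 34999547-35019045. Only 87 bases separated the Cfb and C2 rows. C3 (12266) lay further along chromosome 17 at 57343396-57367559, C3ar1 (12267) on chromosome 6 at 122796446-122806179, and Cfp (18636) on chromosome X at 20502580-20508681.

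Because the C1q genes, Cfp and C3ar1 on the one hand and C3 on the other differed in their pattern across tissues, the sequence just upstream of their transcription start is shown for the members that the RefSeq promoter table holds, 5 of 9. Each run below is the 250 bases before the start, 5′ to 3′ on the gene's own strand, taken from RefSeq on the GRCm38.p6 build, which is not the build of the counts. Capitals mark matches, on either strand, to 3 short motifs: the PU-box core GAGGAA bound by the myeloid factor PU.1, the C/EBP pattern TTGCNNAA and the TATA box TATAAA. None of the matches overlapped another. The windows are chr4:136886201-136886450 for C1qb, chr4:136892915-136893164 for C1qc, chrX:20931556-20931805 for Cfp, chr6:122856158-122856407 for C3ar1 and chr17:57228137-57228386 for C3, all on the minus strand.
C1qb: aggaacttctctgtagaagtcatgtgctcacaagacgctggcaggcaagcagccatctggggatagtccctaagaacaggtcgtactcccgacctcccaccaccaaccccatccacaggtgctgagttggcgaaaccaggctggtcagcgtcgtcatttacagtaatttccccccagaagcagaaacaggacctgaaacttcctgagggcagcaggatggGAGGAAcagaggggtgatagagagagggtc
C1qc: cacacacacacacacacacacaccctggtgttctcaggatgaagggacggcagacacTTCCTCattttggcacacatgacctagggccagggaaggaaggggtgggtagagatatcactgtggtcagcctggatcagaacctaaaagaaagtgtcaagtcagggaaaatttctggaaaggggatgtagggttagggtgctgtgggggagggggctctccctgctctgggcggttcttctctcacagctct
Cfp: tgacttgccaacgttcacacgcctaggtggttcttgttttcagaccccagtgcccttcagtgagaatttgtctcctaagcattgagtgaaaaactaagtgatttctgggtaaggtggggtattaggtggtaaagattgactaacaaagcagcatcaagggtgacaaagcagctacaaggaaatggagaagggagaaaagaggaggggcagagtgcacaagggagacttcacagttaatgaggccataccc
C3ar1: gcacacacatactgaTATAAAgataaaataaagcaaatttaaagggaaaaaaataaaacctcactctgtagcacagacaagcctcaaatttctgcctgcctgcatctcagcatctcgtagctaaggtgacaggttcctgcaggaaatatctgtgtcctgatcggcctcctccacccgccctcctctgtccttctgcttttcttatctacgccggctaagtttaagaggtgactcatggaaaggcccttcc
C3: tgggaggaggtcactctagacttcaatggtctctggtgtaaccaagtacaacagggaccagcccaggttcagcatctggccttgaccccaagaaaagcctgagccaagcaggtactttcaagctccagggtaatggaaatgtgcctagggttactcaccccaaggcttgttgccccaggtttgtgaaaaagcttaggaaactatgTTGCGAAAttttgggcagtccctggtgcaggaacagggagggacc

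The GAGGAA letters began 30 bases before the start in C1qb, and on the opposite strand (TTCCTC) their match began 193 bases before it in C1qc. The C3 window held the C/EBP pattern as TTGCGAAA, beginning 45 bases before the start. TATAAA was found only in the C3ar1 window among these 5, beginning 235 bases before the start, and the Cfp window held none of the 3 motifs. Over the 32851 promoters of the same table, 23.3% held GAGGAA, 9.6% held TTGCNNAA and 12.4% held TATAAA within 250 bases. These matches describe the letters alone.

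Libraries held 24655056 to 42518483 reads on the rows. The labelled cell types were checked on marker genes. Adipoq, which encodes adiponectin and defines adipocytes, was at 1127 ± 166 RPKM (reads scaled to transcript length and library size, given as mean ± SD, n = 6) in iWAT, 387 ± 178 in eWAT and 221 ± 29.5 in BAT. For eWAT over BAT, the log2 fold change of Adipoq was 0.22 (adjusted p = 0.46, edgeR). Of 6 adipocyte markers, 1 (Lep) was higher in eWAT than in BAT and 3 were lower. These 3 were Plin1 (mean RPKM 115.6 in eWAT and 196.2 in BAT), Lipe (69.98 and 169.5) and Fabp4 (4050 and 5087). For iWAT over BAT, 4 of the 6 were higher and 1 was lower. Ucp1, the brown fat uncoupling protein, was at 1858 ± 237 in BAT and at 2.26 ± 0.592 and 0.261 ± 0.0844 in iWAT and eWAT. The adipocyte preparations also held RNA of macrophage markers. The RPKM of 10 such markers summed to 465 to 916 in iWAT, 2620 to 4200 in eWAT and 26.6 to 52.9 in BAT, and none was at 0 throughout a tissue. Emr1, which encodes the macrophage surface protein F4/80, was at 23.0 ± 5.95, 106 ± 19.3 and 0.635 ± 0.193 RPKM in the same order. Within eWAT, samples 1 and 3 stood apart with Adipoq at 199 and 150 RPKM, against 396 to 579 in the other samples. The fold changes, order and ratios of the 9 genes and the counts of the gene lists are therefore also given without eWAT samples 1 and 3, an option chosen after their values were seen. Without these samples, 3 of the 6 adipocyte markers were higher in eWAT than in BAT, Adipoq among them, and 3 were lower.

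Between the white depots, the 9 genes did not all move in the same direction. The genes for the C1q chains, properdin and the C3a receptor were higher in eWAT, by 2.70- to 5.17-fold, and their RPKM values did not overlap between the depots. C2 and C4b were higher in iWAT, by 1.80- and 1.64-fold, with overlapping values. The C4b call was lost without eWAT samples 1 and 3 (adjusted p = 0.11, edgeR). For Cfb and C3 no difference passed the test, with log2 fold changes of 0.6 and -0.29 for iWAT over eWAT. Without eWAT samples 1 and 3, C3 was called higher in eWAT (log2 fold change -0.55, adjusted p = 0.00633, edgeR). In total 7 of 9 genes passed an adjusted p of 0.05 in edgeR's quasi-likelihood test with Benjamini-Hochberg adjustment over 19623 genes, 5 higher in eWAT and 2 higher in iWAT. The background was high: 68.6% of all genes tested passed, 34.1% higher in iWAT and 34.5% higher in eWAT. RPKM did not overlap for 5 of the 9 genes and for 44.0% of all genes tested. The median log2 fold change, iWAT over eWAT, was -1.43 over the 9 genes and 0.00 over all genes tested.

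**Figure D1:**
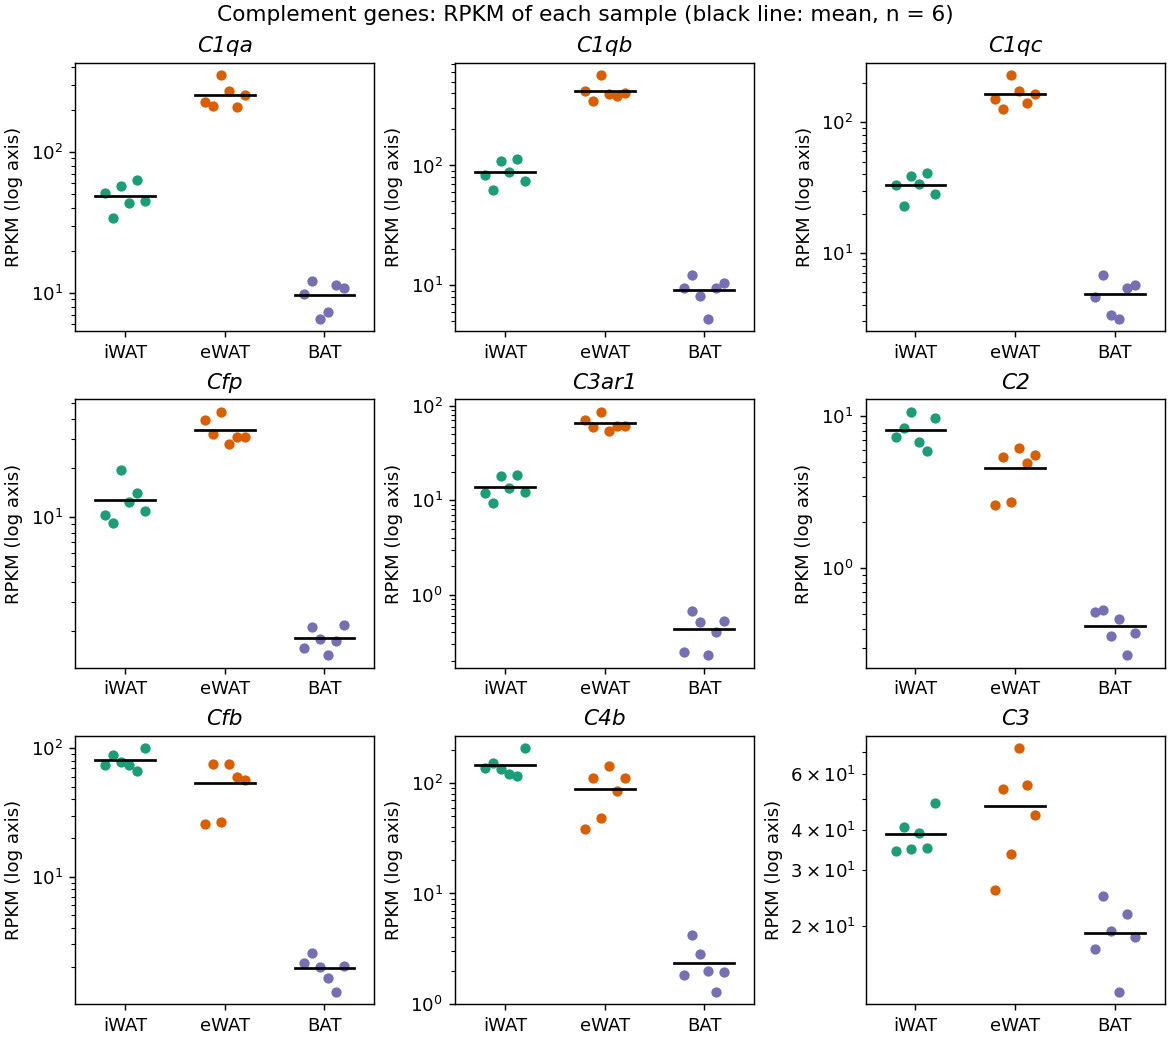
RPKM of the 9 complement genes in each of the 18 samples, on log axes, by tissue (iWAT, eWAT and BAT). Points are samples and black lines are means of 6. C1qa, C1qb, C1qc, Cfp and C3ar1 have their highest values in eWAT, C2, Cfb, C4b and C3 overlap between the white depots, and every gene is lowest in BAT.

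C1qa ranged from 34.2 to 63.7 RPKM in iWAT (median 47.8), from 209 to 351 in eWAT (median 241) and from 6.54 to 12.2 in BAT (median 10.3). No tissue overlapped another. The log2 fold change of C1qa was -2.37 ± 0.15 (SE) for iWAT over eWAT (adjusted p = 1.84e-07, edgeR), and it was -2.24 and -2.35 within sequencing lanes 1 and 2. C1qb was the most abundant chain in the white depots, with 62.4 to 113 RPKM in iWAT (median 86.1) and 346 to 568 in eWAT (median 399). In BAT it ranged from 5.20 to 12.3 RPKM (median 9.49). Its log2 fold change between the white depots was -2.24 ± 0.15. C1qc ranged from 22.8 to 41.1, from 126 to 230 and from 3.11 to 6.76 RPKM in iWAT, eWAT and BAT, and its log2 fold change between the white depots was -2.32 ± 0.16. For all 3 chains, no eWAT sample came down to the level of any iWAT sample.

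The macrophage markers moved the same way as these chains. All 10 markers were higher in eWAT than in iWAT, with a median log2 fold change of -1.98 for iWAT over eWAT, and Emr1 had -2.20 ± 0.17 (adjusted p = 4e-07, edgeR). All 6 adipocyte markers were higher in iWAT, with a median of 1.43. Markers of other cells moved as well. Cdh5, an endothelial cadherin, was 3.58-fold higher in iWAT, and the mesothelial Upk3b was near 0 in iWAT (0 to 4 reads per sample) and at 0.637 ± 0.445 RPKM in eWAT. Of 5 mesothelial markers tested, 4 were higher in eWAT. The exception was Lrrn4, at 2.31 ± 0.272 RPKM in iWAT, 1.99 ± 0.228 in eWAT (adjusted p = 0.068, edgeR) and 8.30 ± 1.11 in BAT. Of 7 markers of progenitors and fibroblasts, 2 were higher in iWAT, namely Cd34 (2.58-fold, adjusted p = 0.00083, edgeR) and Pi16 (1.84-fold, adjusted p = 0.043, edgeR), and none was higher in eWAT. Pdgfra of that list was at 0.771 ± 0.450 RPKM in iWAT and 1.06 ± 0.318 in eWAT. Of the 2 neutrophil markers tested, Csf3r was 2.58-fold higher in eWAT without overlap (adjusted p = 1.1e-06, edgeR), and S100a8 was at 6.06 ± 0.855 and 5.72 ± 2.53 RPKM. The rest of that list had too few reads, with none for Ly6g, at most 12 per sample for S100a9 and at most 4 for Retnlg. Without eWAT samples 1 and 3, the calls of all these markers that were still tested between the white depots were kept. The T cell marker Cd3e had at most 6 reads in any sample. Cd4, also a T cell marker, had 9 to 37 reads in iWAT, 16 to 35 in eWAT and 6 to 20 in BAT. Alb (hepatocytes) had 103 to 227 reads in iWAT and at most 18 elsewhere. Of the same list, Serpina1a had 48 to 64 reads in iWAT, 10 to 29 in eWAT and 9 to 27 in BAT. Apoa1 had at most 2 reads in any sample and Ttr at most 1. The part of these cell types in the complement differences was not tested. In bulk samples, fewer cells of a type and less RNA per cell cannot be told apart.

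Properdin and the C3a receptor followed the C1q chains between the white depots. Cfp ranged from 9.24 to 19.4 RPKM in iWAT (median 11.6) and from 28.2 to 44.5 in eWAT (median 31.7), which was a 2.70-fold difference (log2 fold change -1.43 ± 0.17 for iWAT over eWAT, adjusted p = 8.63e-06, edgeR). Within lanes 1 and 2 the log2 fold change was -1.17 and -1.56. C3ar1 ranged from 9.35 to 18.4 RPKM in iWAT (median 12.7) and from 54.4 to 86.6 in eWAT (median 60.7). Its log2 fold change was -2.24 ± 0.16 (adjusted p = 3.07e-07, edgeR), or 4.71-fold higher in eWAT. Without eWAT samples 1 and 3, the 5 genes kept log2 fold changes between -2.28 for C1qa and -1.28 for Cfp.

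The enzymes and substrates of C3 cleavage had another pattern. C2, the serine protease that pairs with C4b in the classical pathway, was the least abundant member in both white depots. It ranged from 5.88 to 10.7 RPKM in iWAT (median 7.84) and from 2.59 to 6.20 in eWAT (median 5.14), a log2 fold change of 0.84 ± 0.23 (adjusted p = 0.00577, edgeR). In lane 1 alone the adjusted p of C2 was 0.057 and in lane 2 alone 0.0498, with log2 fold changes of 0.93 and 0.96, and without eWAT samples 1 and 3 the value dropped to 0.56 (adjusted p = 0.0125, edgeR).

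C4b, the abundant component that C1s cleaves, ranged from 117 to 208 RPKM in iWAT (median 136) and from 38.1 to 142 in eWAT (median 97.7). The log2 fold change was 0.71 ± 0.29 with an adjusted p of 0.0448 in edgeR, so the call sat just inside the threshold. It was lost without TMM scaling (adjusted p = 0.0597), with lane as a covariate (0.0636), in lane 1 alone (0.317), in lane 2 alone (0.0922), and without eWAT samples 1 and 3 (0.11). Its log2 fold change was 0.63, 0.75, 0.51, 1.04 and 0.37 in the same order, so it was larger than in all samples with lane as a covariate and in lane 2. Lane 1 held 2 iWAT and 4 eWAT samples and lane 2 held 4 and 2. It was also lost in 6 of the 12 edgeR fits that left out a single sample, namely iWAT sample 2, 3 or 16 or eWAT sample 1, 3 or 5, with adjusted p values of up to 0.107.

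Cfb ranged from 66.9 to 101 RPKM in iWAT (median 76.4) and from 25.7 to 75.9 in eWAT (median 58.7). Its log2 fold change of 0.60 ± 0.26 missed the threshold (adjusted p = 0.0583, edgeR; 95% interval 0.01 to 1.19). Several alternatives moved it past the threshold, among them DESeq2 (adjusted p = 0.0355), limma on log2(RPKM + 0.1) (0.0400), all 18 samples in one fit (0.0339) and lane 2 alone (0.0368, log2 fold change 1.04), as did leaving out eWAT sample 2 (0.0325) or 4 (0.0307). In lane 1 alone the log2 fold change of Cfb was 0.36 and without eWAT samples 1 and 3 it was 0.26.

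C3, the component on which all pathways converge, ranged from 34.4 to 48.4 RPKM in iWAT (median 37.2) and from 26.0 to 72.2 in eWAT (median 49.3). The eWAT values enclosed the iWAT values. The log2 fold change was -0.29 ± 0.21 (adjusted p = 0.244, edgeR; 95% interval -0.76 to 0.19). It was -0.63 in lane 1 alone and turned to 0.26 in lane 2 alone, neither past the threshold. Without eWAT samples 1 and 3, C3 was higher in eWAT (log2 fold change -0.55, adjusted p = 0.00633, edgeR).

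**Figure D2:**
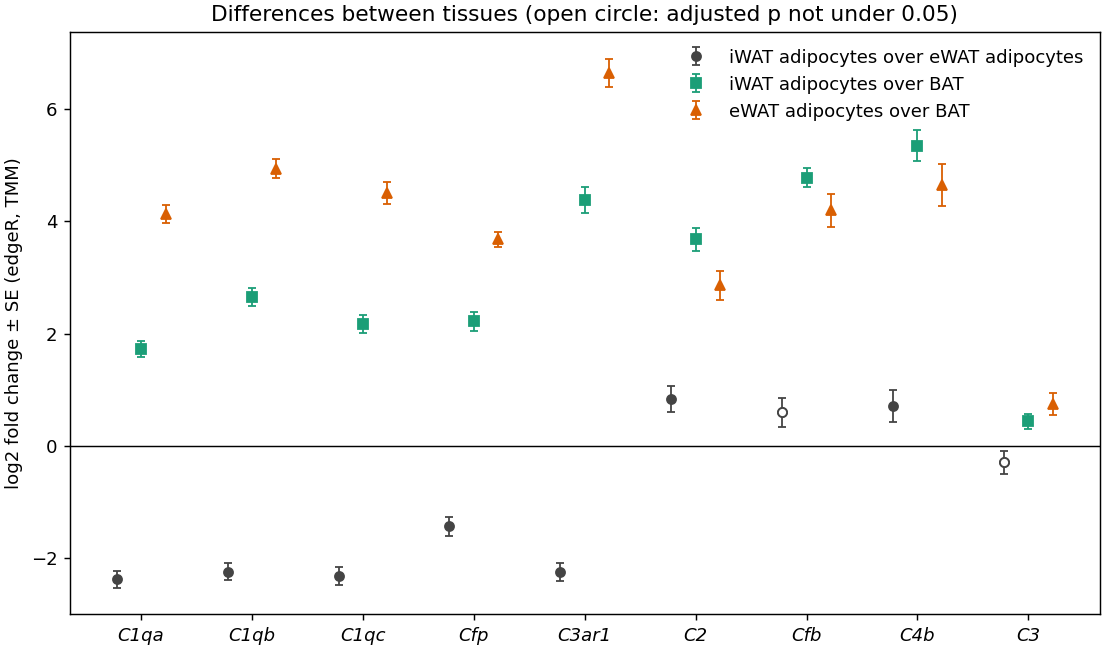
Log2 fold changes ± SE of the 9 genes from edgeR with TMM scaling in the 3 tissue comparisons, 6 samples per tissue. Open circles mark Cfb and C3, whose adjusted p was not under 0.05 between the white depots. Grey circles lie near -2 for the C1q chains and C3ar1 and between -0.29 and 0.84 for C2, Cfb, C4b and C3, while all green squares and orange triangles (white depots over BAT) lie above 0.

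The spread within eWAT separated the same genes. In samples 1 and 3, Cfb was at 25.7 and 26.7 RPKM, against 57.2 to 75.9 in the other 4. C4b was at 38.1 and 47.8 RPKM, against 84.0 to 142, and C2 at 2.59 and 2.72 RPKM, against 4.90 to 6.20. C3 was at 26.0 and 33.8 RPKM, against 44.6 to 72.2. These were the samples with the lowest Adipoq. The C1q chains, Cfp and C3ar1 did not show this drop. Sample 3 had the highest value of all 5 of these genes, with C1qa at 351, C3ar1 at 86.6 and Cfp at 44.5 RPKM, and sample 1 had the second highest C3ar1 (70.4) and Cfp (39.5). Adipsin, encoded by Cfd, was at 43.7 and 48.4 RPKM in samples 1 and 3, against 142 to 202. Coefficients of variation in eWAT were 33.6% to 45.2% for C2, Cfb, C3 and C4b and 17.9% to 21.9% for the other 5 genes.

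Over all 18 samples, with each tissue's mean subtracted from log2 of the TMM-scaled RPKM plus 0.1, the pooled correlations showed this split. Pearson's r lay between 0.494 and 0.935 in the 10 pairs among C1qa, C1qb, C1qc, Cfp and C3ar1 (Spearman's rho 0.439 to 0.926). It lay between 0.591 and 0.910 in the 6 pairs among C2, Cfb, C3 and C4b (rho 0.523 to 0.895), and between -0.378 and -0.05 in the 20 pairs across the sets (rho -0.424 to -0.061). When the 2 samples with the most extreme deviations of a pair's first gene were left out, the ranges of r were 0.518 to 0.915, 0.325 to 0.860 and -0.478 to 0.103. Within single tissues (6 samples each) the split held in the white depots but not in BAT. Across the sets, r was below 0 in 19 of 20 pairs in iWAT and in 20 of 20 in eWAT, but in 7 of 20 in BAT. There C3 went with C3ar1 (r = 0.830), C1qb (0.805), C1qc (0.675) and Cfp (0.572) rather than with C4b (0.295), Cfb (0.033) or C2 (-0.44). The sets were formed after their values were seen, the samples of a tissue share preparation and lanes, and C2 and Cfb are neighbours with an overlapping row, so these correlations are a description.

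**Figure D3:**
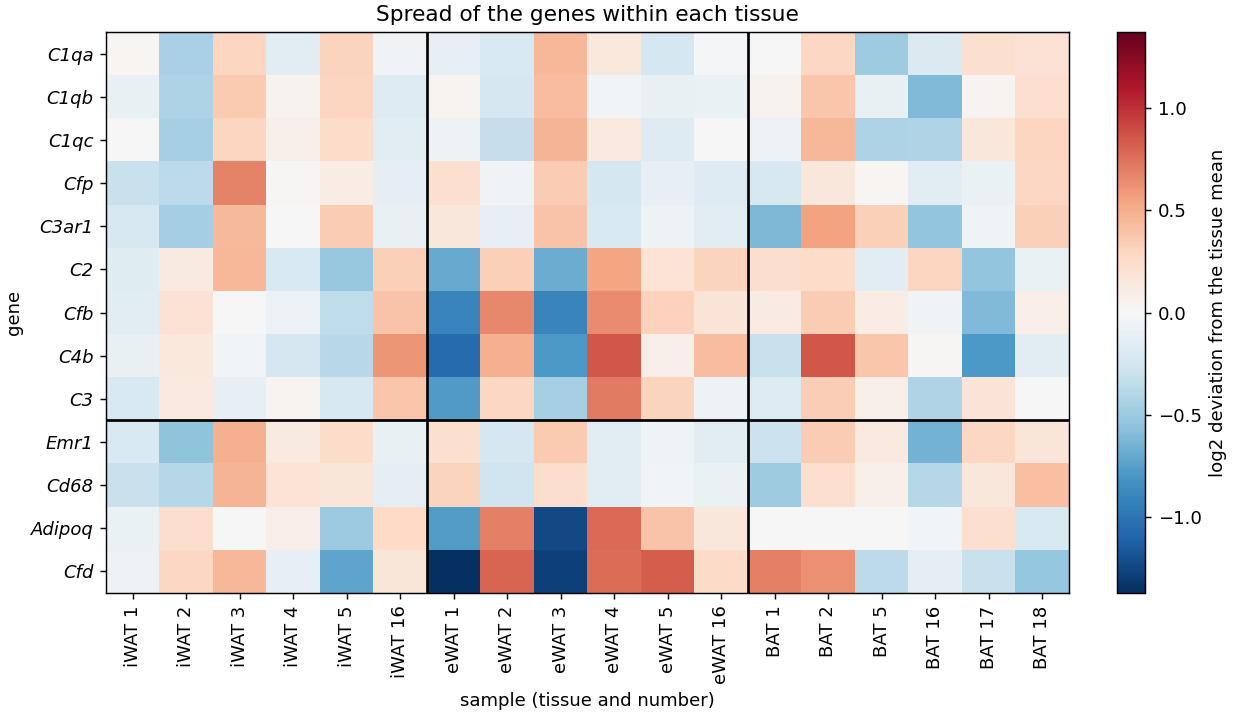
Log2 deviation of each sample from its tissue mean (TMM-scaled RPKM + 0.1) for the 9 complement genes and, under the line, Emr1, Cd68, Adipoq and Cfd, in 18 samples ordered by tissue. Red is above and blue below the mean. In eWAT samples 1 and 3, C2, Cfb, C4b, C3, Adipoq and Cfd are blue (C4b -1.05 and -0.79, Adipoq -0.77 and -1.24), while Emr1 is red (0.22 and 0.36).

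Genes whose spread within tissues was most like that of a member were sought among 17283 genes with a mean of at least 10 reads in each tissue, leaving out the members. For C1qa these were Gm10353 (r = 0.861), LOC100503568 (0.857), LOC100045292 (0.836), C77080 (0.823) and Cd4 (0.811). Cd4, also among the T cell markers, was low, with means of 0.152, 0.2 and 0.0982 RPKM in iWAT, eWAT and BAT. For C3ar1 they were Evi2a/Evi2b (0.920), Mrc1 (0.920), Ptafr (0.918), Rapgef6 (0.915) and AK151849 (0.913). Mrc1, also among the 10 macrophage markers, encodes the mannose receptor and Ptafr the receptor for platelet-activating factor. For C3 the first and second were rows that overlap C3 itself, followed by Smo (0.922), Pcsk5 (0.920) and Abhd15 (0.917), and Smo is a transducer of hedgehog signals. Spearman's rho of these 15 genes was 0.765 or higher, and r without the 2 samples farthest from the member's median was 0.731 or higher.

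Against BAT, all 9 genes were higher in both white adipocyte preparations. In iWAT over BAT, 9 of 9 genes passed the test in that direction, where 75.3% of 19745 genes passed, 38.1% higher in iWAT and 37.2% higher in BAT. In eWAT over BAT, 9 of 9 passed in that direction, where 82.5% of 20076 genes passed, 41.1% higher in eWAT and 41.4% higher in BAT. None of the 9 genes overlapped with BAT in RPKM, against 65.3% and 68.4% of all genes tested without overlap. On TMM-scaled RPKM, the scale of the edgeR fold changes, 8 of the 9 had no overlap with BAT and C3 overlapped it in both comparisons. Without eWAT samples 1 and 3, 9 of 9 still passed over BAT, with log2 fold changes from 1.01 for C3 to 6.51 for C3ar1. The median log2 fold change of the 9 genes was 2.66 for iWAT over BAT and 4.20 for eWAT over BAT, beside medians of 0.01 and -0.02 over all genes tested. White samples were run on lanes 1 and 2 and BAT on lanes 3 and 4, and BAT was whole tissue, so lane, preparation and tissue cannot be told apart here. The comparisons share samples and are given side by side.

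Scaling set the size of these differences. The TMM factors averaged 1.17 in iWAT, 1.25 in eWAT and 0.69 in BAT, and without TMM the median of all genes moved, on the log2 scale, to 0.867 and 0.888 over BAT. The split of all called genes then moved from 7528 higher in iWAT and 7336 higher in BAT to 13703 and 3054, and from 8243 and 8318 to 12965 and 4061 for eWAT. All 9 genes stayed higher in the white preparations under both scalings. RPKM values carry no such factor. For the 9 genes, fold changes from edgeR over BAT were smaller than ratios of mean RPKM. The reverse was seen for Cpn2, a complement gene higher in BAT, at 148-fold in edgeR and 97.9-fold in mean RPKM over iWAT.

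C4b had the largest difference between iWAT and BAT among the 9 genes. It was at 1.29 to 4.25 RPKM in BAT (median 1.96), and the log2 fold change was 5.35 ± 0.28 over BAT for iWAT and 4.65 ± 0.37 for eWAT, or 40.7- and 25.2-fold. Cfb, at 1.27 to 2.57 RPKM in BAT (median 1.99), was 27.4- and 18.3-fold higher in iWAT and eWAT. C2 had only 23 to 54 reads per BAT sample, 0.267 to 0.530 RPKM, and was 12.8- and 7.24-fold higher in iWAT and eWAT. These genes of the C3-cleaving enzymes thus ranged from 7.24- to 40.7-fold in the 2 comparisons.

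C3 differed least among the 9 genes. In BAT it ranged from 12.5 to 24.9 RPKM (median 18.9), which on the deposited scale was under every white sample, although the highest BAT value came close to the lowest eWAT value of 26.0. After TMM scaling the tissues overlapped, with 18.1 to 30.4 in BAT, 30.0 to 45.7 in iWAT and 23.5 to 65.8 in eWAT. The log2 fold change over BAT was 0.44 ± 0.13 for iWAT (adjusted p = 0.00512, edgeR) and 0.75 ± 0.20 for eWAT (adjusted p = 0.00316, edgeR), or 1.35- and 1.68-fold. Without TMM these were 1.27 and 1.64 on the log2 scale, and the ratios of mean RPKM were 2.04 and 2.5. The value for eWAT was 1.01 without eWAT samples 1 and 3 (log2 fold change, adjusted p = 1.3e-05, edgeR). In all samples, both C3 calls were lost where a log2 fold change of at least 1 was also asked.

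C3ar1 had the largest difference between eWAT and BAT. It had 37 to 182 reads per BAT sample, 0.228 to 0.665 RPKM (median 0.463), and the log2 fold change was 6.65 ± 0.25 for eWAT over BAT and 4.38 ± 0.23 for iWAT over BAT (adjusted p = 2.2e-12 and 1.4e-10, edgeR). Among the C1q chains, the log2 fold changes over BAT were 1.73, 2.66 and 2.17 for C1qa, C1qb and C1qc in iWAT and 4.13, 4.94 and 4.51 in eWAT. Cfp, at 1.41 to 2.16 RPKM in BAT, had 2.22 and 3.68. Macrophage markers were also higher in the white preparations, 9 of 10 in iWAT and 10 of 10 in eWAT over BAT, with median log2 fold changes of 2.97 and 5.12. Emr1 had 4.56 and 6.79. Their part in the difference was not tested.

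The order of the members differed by tissue on the RPKM scale, which is per length of transcript. In iWAT, C4b was highest in 6 of 6 samples at 145 ± 33.3 RPKM, followed by C1qb (88.2 ± 19.7) and Cfb (80.5 ± 12.2), whose ranges overlapped. Next came C1qa (49.1 ± 10.6), C3 (38.8 ± 5.38) and C1qc (33.0 ± 6.80), each overlapping its neighbour, then C3ar1 (13.8 ± 3.58) and Cfp (12.7 ± 3.69), which also overlapped, and C2 (8.11 ± 1.82), which was lowest in 6 of 6 samples although its range overlapped that of Cfp. In eWAT, C1qb, C1qa and C1qc held the top 3 places in that order in every sample, at 418 ± 77.2, 254 ± 52.8 and 165 ± 36.0 RPKM. C4b (89.1 ± 40.3), C3ar1 (65.3 ± 11.7), Cfb (53.4 ± 22.4), C3 (47.6 ± 16.6) and Cfp (34.5 ± 6.20) followed with overlapping ranges, and C2 (4.56 ± 1.53) was again lowest. Without samples 1 and 3, the top 3, C4b (112 ± 23.6 RPKM, n = 4), Cfp and C2 held their places in eWAT, while Cfb (67.0 ± 9.74) had a higher mean than C3ar1 (58.7 ± 2.95). In BAT, C3 was highest in 6 of 6 samples at 19.0 ± 4.23 RPKM and did not overlap C1qa, at 9.68 ± 2.27. C1qa overlapped C1qb (9.15 ± 2.38), and C1qc (4.81 ± 1.41), C4b (2.35 ± 1.05), Cfb (1.93 ± 0.442) and Cfp (1.79 ± 0.296) each overlapped its neighbour. C3ar1 (0.433 ± 0.172) and C2 (0.418 ± 0.102) were lowest and did not differ beyond their spread.

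Ratios within a sample do not depend on scaling between samples. C4b was at 3.71 ± 0.450 times the RPKM of C3 in iWAT, 1.82 ± 0.430 times in eWAT and 0.125 ± 0.0419 times in BAT, and these ranges did not overlap. C3 was at 3.01 ± 1.02, 0.774 ± 0.362 and 47.8 ± 13.5 times the RPKM of C3ar1 in the same order, again without overlap. The eWAT ratios without samples 1 and 3 were 2.01 ± 0.403 for C4b to C3 and 0.972 ± 0.250 for C3 to C3ar1 (n = 4).

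The balance among the C1q chains also differed in BAT. As for the fold changes over BAT, lane, preparation and tissue cannot be told apart in these ratios. C1qb was at 1.80 ± 0.156 times the RPKM of C1qa in iWAT (range 1.64 to 2.05) and 1.66 ± 0.144 times in eWAT (1.46 to 1.83), but at 0.951 ± 0.178 times in BAT (0.706 to 1.23). C1qc was at 0.675 ± 0.0556, 0.647 ± 0.0282 and 0.493 ± 0.0480 times the RPKM of C1qa. C1qb was at 2.67 ± 0.105, 2.56 ± 0.197 and 1.92 ± 0.268 times that of C1qc. These ratios were compared after their values were seen, with two-sided exact permutation tests of the mean log2 ratio over samples in 9 comparisons. C1qb over C1qa differed between iWAT and BAT by 0.94 on the log2 scale and between eWAT and BAT by 0.82, each with an exact p of 0.00216, the smallest that 6 against 6 samples allow, and 0.0039 after Benjamini-Hochberg adjustment over the 9. All 6 comparisons with BAT had an adjusted exact p of 0.00649 or lower. Between the white depots the log2 differences were 0.12, 0.06 and 0.06, with exact p values of 0.104, 0.37 and 0.264. When eWAT samples 1 and 3 were left out, the ratios in eWAT differed from BAT by 0.79, 0.38 and 0.41 on the log2 scale for C1qb to C1qa, C1qc to C1qa and C1qb to C1qc, with unadjusted exact p values of 0.00952, 0.00952 and 0.019. An exact p of 0.00952 is the smallest that 4 against 6 samples allow.

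**Figure D4:**
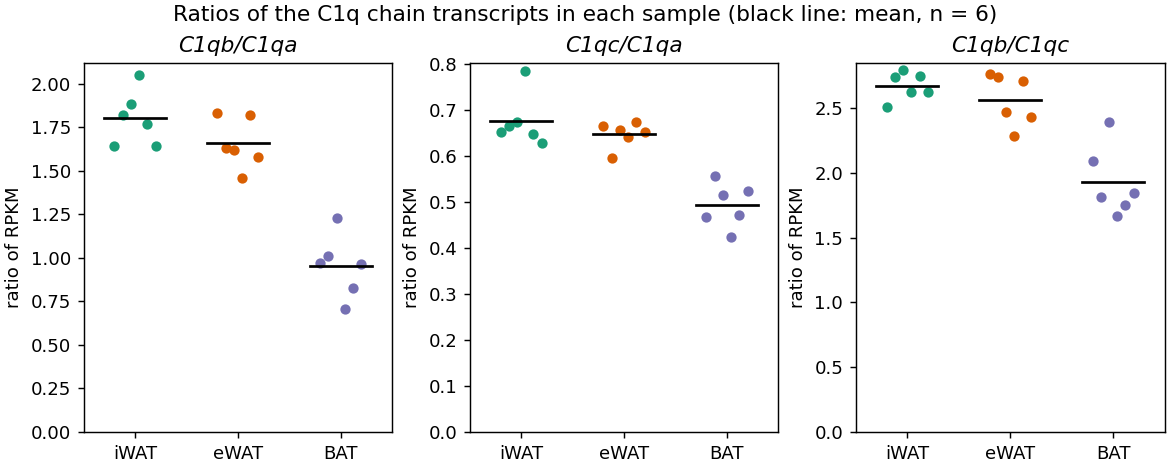
Ratios of RPKM between the C1q chain genes in each of the 18 samples, by tissue, on axes that start at 0. Black lines are means of 6. For C1qb/C1qa, BAT samples lie between 0.706 and 1.23 and all white samples between 1.46 and 2.05.

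Members were also set against the macrophage markers of the same sample, as log2 RPKM minus the mean log2 RPKM of the 10 markers. That mean was 3.95 ± 0.33 in iWAT, 5.80 ± 0.22 in eWAT and 0.24 ± 0.35 in BAT. A gene with equal RPKM in all tissues is therefore lowest in eWAT and highest in BAT on this scale. On this scale C1qb was at 2.48 ± 0.05 (SD, n = 6) in iWAT, 2.89 ± 0.12 in eWAT and 2.90 ± 0.23 in BAT. C1qa was at 1.64 ± 0.14, 2.16 ± 0.23 and 3.0 ± 0.36 and C1qc at 1.07 ± 0.06, 1.53 ± 0.21 and 1.97 ± 0.31. All 3 chains were thus lower against the mean of the markers in iWAT than in either of the other tissues. This does not hold for each marker, either between the white depots or against BAT. For iWAT over eWAT, log2 fold changes of single markers ranged from -2.38 for Cd14 to -0.6 for Cd163. Those of C1qa, C1qb and C1qc were -2.37, -2.24 and -2.32. For iWAT over BAT, single markers ranged from 0.02 for Cd163 to 5.36 for Trem2, and the chains had 1.73, 2.66 and 2.17. C3ar1 was at -0.20 ± 0.09 and 0.21 ± 0.09 in the white depots and at -1.56 ± 0.32 in BAT, with no overlap among the tissues. Cfp was at -0.33 ± 0.19, -0.71 ± 0.12 and 0.58 ± 0.19, so its means were ordered opposite to those of C3ar1 across the 3 tissues.

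The remaining genes spread more widely on this scale. C3 was at 1.32 ± 0.47 in iWAT, -0.31 ± 0.73 in eWAT and 3.97 ± 0.10 in BAT. C4b was at 3.20 ± 0.56, 0.53 ± 0.95 and 0.88 ± 0.55, and Cfb at 2.37 ± 0.50, -0.19 ± 0.93 and 0.68 ± 0.42. C2 was at -0.96 ± 0.50, -3.69 ± 0.75 and -1.54 ± 0.59. For C2, Cfb, C4b and C3, all eWAT values lay under all iWAT values on this scale. The higher marker mean of eWAT enters this order, since mean RPKM of C3 was 38.8 in iWAT and 47.6 in eWAT. With eWAT samples 1 and 3 left out, the eWAT means of C3, C4b, Cfb and C2 were 0.12, 1.11, 0.38 and -3.22, so that C4b was then above its BAT mean, and the C1q chains, Cfp and C3ar1 moved by less than their SD.

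**Figure D5:**
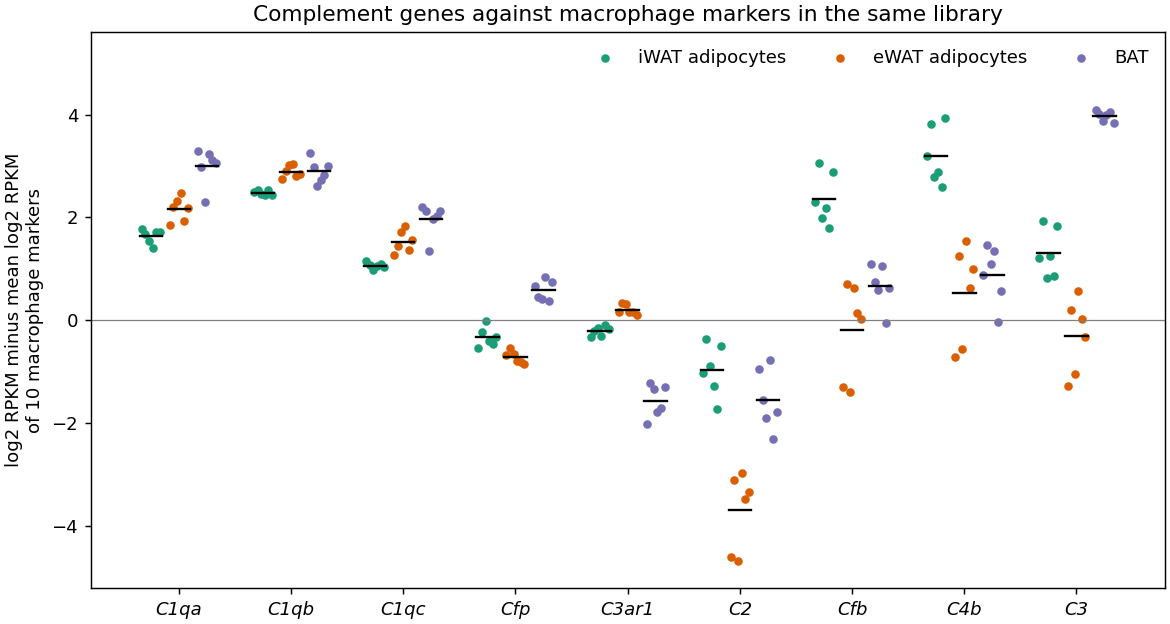
Log2 RPKM of each member minus the mean log2 RPKM of 10 macrophage markers in the same sample, for iWAT, eWAT and BAT. Points are samples and black lines are means of 6. C1qb stays between 2.43 and 3.26 in all samples, whereas C3 spans -1.27 to 4.09.

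Of 45 other complement genes found in the files, 31 were tested between the white depots, with 13 higher in iWAT, 12 higher in eWAT and 6 past neither. Over all genes tested, 34.1% were higher in iWAT and 34.5% in eWAT. Over BAT, 22 of 30 were higher in iWAT and 5 lower, beside 38.1% and 37.2% of all genes, and 23 of 32 were higher in eWAT and 7 lower, beside 41.1% and 41.4%. Leaving out eWAT samples 1 and 3, the counts were 11 higher in iWAT and 11 higher in eWAT between the white depots, and 24 higher and 7 lower in eWAT over BAT. The list was split by role, and the counts by role that follow stand against the same shares of all genes.

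Among the genes that start the cascade, 5 of 9 tested were higher in iWAT and 2 higher in eWAT. Cfd, the adipocyte serine protease that cleaves factor B, was the most abundant complement gene named here in iWAT, at 540.5 ± 126 RPKM (341 to 709), against 137 ± 73.8 in eWAT and 25.3 ± 10.9 in BAT. The log2 fold change was 1.99 ± 0.38 between the white depots (adjusted p = 0.00047, edgeR), 3.83 ± 0.26 for iWAT over BAT and 1.86 ± 0.38 for eWAT over BAT. C1s, the protease partner of C1q that cleaves C4 and C2, was at 36.7 ± 6.22, 18.2 ± 4.16 and 8.17 ± 1.43 RPKM, higher in iWAT by 2.02-fold over eWAT and 2.95-fold over BAT. C1s thus did not follow the C1q chains between the white depots. The lectin pathway genes Mbl2 and Fcnb had no reads in any sample.

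Receptors moved with C3ar1. Of 7 receptors tested between the white depots, 6 were higher in eWAT and none higher in iWAT. All 6 tested in iWAT and all 7 tested in eWAT were higher than in BAT. C5ar1, the C5a receptor, was at 20 ± 5.56 RPKM in iWAT, 98.1 ± 15.4 in eWAT and 0.891 ± 0.243 in BAT. Its log2 fold change between the white depots was -2.29 ± 0.18 and over BAT in eWAT 6.19 ± 0.17. Itgb2, the shared integrin chain of complement receptors 3 and 4, was at 51.8 ± 12.8, 273 ± 81.9 and 1.24 ± 0.347 RPKM, and its partners Itgam and Itgax had log2 fold changes of -2.45 ± 0.19 and -2.46 ± 0.15 between the white depots. Over BAT, Itgax had 4.90 ± 0.12 in iWAT and 7.39 ± 0.22 in eWAT. Vsig4, a macrophage receptor for C3 fragments, had -2.42 ± 0.31 between the white depots. Cd93, expressed by endothelial and myeloid cells, was at 40.9 ± 17 and 52.6 ± 6.95 RPKM in the white depots (log2 fold change -0.37 ± 0.20, adjusted p = 0.12, edgeR).

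Regulators were mixed. Between the white depots 6 of 11 tested were higher in iWAT and 3 higher in eWAT, or 5 and 2 without eWAT samples 1 and 3. Cd59a, which blocks the membrane attack complex, was at 92.3 ± 8.87, 36.4 ± 11.8 and 49.5 ± 5.06 RPKM in iWAT, eWAT and BAT, 2.55-fold higher in iWAT than in eWAT. Serping1, the C1 inhibitor, was at 50.6 ± 5.10, 36.1 ± 8.93 and 7.45 ± 0.918 RPKM. Cfi, the protease that inactivates C3b, had at most 1 read per BAT sample, against 11 to 55 in iWAT and 18 to 56 in eWAT. Cpn2, a subunit of the carboxypeptidase that inactivates C3a, went the other way, with 7.86 to 15.6 RPKM in BAT, 0.0646 to 0.144 in iWAT and at most 3 reads per sample in eWAT. The log2 fold change of Cpn2 for iWAT over BAT was -7.21 ± 0.20. Cpn1, also of that carboxypeptidase, had at most 1 read per BAT sample and at most 4 in any sample. C4bp, which restrains C4b, had no reads in iWAT, 0 to 90 per sample in eWAT and at most 2 in BAT.

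Late components were scarce. Of the terminal genes, 3 of 7 had enough reads to be tested. C6 was at 7.07 ± 1.98 RPKM in iWAT, 2.90 ± 1.65 in eWAT and 0.0433 ± 0.0314 in BAT, a log2 fold change of 6.66 ± 0.30 for iWAT over BAT and a 2.46-fold difference between the white depots. The others tested went differently. C7 was at 0.239 ± 0.0617 RPKM in iWAT, 1.18 ± 0.485 in eWAT and 0.229 ± 0.135 in BAT, 4.88-fold higher in eWAT than in iWAT (adjusted p = 2.1e-05, edgeR). C8g was higher in BAT, by 4.30-fold over iWAT and 5.92-fold over eWAT, and 1.40-fold higher in iWAT than in eWAT (adjusted p = 0.030, edgeR), a call lost without eWAT samples 1 and 3 (adjusted p = 0.13, edgeR). Hc, which encodes C5, had at most 15 reads per sample, C8a at most 2, C8b none and C9 at most 9.

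Some member counts are uncertain because their rows share sequence or position with other rows. LOC675521 overlaps C4b on the same strand and carried 99.7% to 100% as many reads as C4b in each sample, so the fold changes of both rows agree to 2 decimals in all 3 comparisons. C4a, the near-identical neighbour of C4b, carried 0.076% to 4.07% as many. LOC100048759 overlaps C3 and carried 89.3% to 91.9% as many reads. AK150340, on the opposite strand of C3, was at 42.4, 52.5 and 21.4 RPKM in iWAT, eWAT and BAT, close to C3 itself. A read-through row named C2/Cfb spans both neighbours and AK131699 overlaps Cfb on the opposite strand, so reads of Cfb were counted on several rows. AK131699 passed the test between the white depots (log2 fold change 0.63, adjusted p = 0.036, edgeR), where Cfb did not. The C2/Cfb row also passed, narrowly (log2 fold change 0.62, adjusted p rounding to 0.05, edgeR). The C1q chain genes, Cfp and C3ar1 overlapped no other row.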

How the data were processed

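RNA was measured by RNA-seq in 18 samples of HFD mice, 6 per tissue. Per the study's methods and the submitters' processing notes, the authors prepared libraries with a NEBNext Ultra kit, trimmed reads with cutadapt 1.16 and mapped them to mm9 with HISAT2 2.1.0. The counting program, the annotation, its strand setting and the handling of multiply mapped reads are not given in the sources used here. The deposited files hold, for each transcript row, a whole-number read count and an RPKM value, which the authors derived from that count and the transcript length with no further normalization. A read could be counted on several overlapping rows. RPKM is printed as deposited.

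Where a symbol had several rows, only that of highest mean RPKM over all samples was kept. Samples were grouped by tissue from their titles. Tissue pairs were fitted separately, on 12 samples each, with edgeR 4.0.16 (glmQLFit and glmQLFTest, TMM, two-sided) in R 4.3.3, over genes averaging 10 or more reads, with Benjamini-Hochberg adjustment over all genes tested and a threshold of 0.05. SEs were derived from the F statistic, and 95% intervals from the SE with 10 degrees of freedom. The code was tested on simulated data. No 2 libraries of a tissue matched within sampling noise, and the labels do not say whether samples come from separate mice, so p-values measure the spread between samples. PCR duplicates were not told apart in the counts.

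Alternatives were DESeq2 1.42.0, limma 3.58.1 on log2(RPKM + 0.1), no TMM, no filter, summed rows, all 18 samples in one fit, a replicate block, lane as a covariate, a fold limit and each sample left out, and, chosen after seeing the data, each lane alone, eWAT samples 1 and 3 left out, and overlap on TMM-scaled RPKM. The members and the lists of markers and complement genes were chosen with earlier results of these data known. All 9 members are named, and of the other complement genes those with a mean of at least 10 RPKM in a tissue or among the 5 largest called changes of a comparison. The result of 1 cell type marker is not reported here. Further genes (Mbl2, Fcnb, Hc, C7, C8g, C8a, C8b, C9, C4a, Cpn1 and the overlapping rows) were named after their values were seen. Permutation tests used scipy 1.17.1, and figures were drawn with matplotlib 3.10.9 under Python 3.11.15.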

Additional observations from a re-analysis of the deposited data

Results flagged for a closer look

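C1qb in eWAT adipocytes had a sample far from the others. Sample 3 was at 568 RPKM, the next value was 418 and the lowest 346, so its gap was 0.676 of the whole range, above Dixon's critical value for 6 samples. It was the only flag of this kind among 27 combinations of gene and tissue, and chance alone flags about 1 in 20 such groups. The same sample was highest in C1qa, C1qc, Cfp and C3ar1 and had the lowest Adipoq of the eWAT samples. Leaving out any single sample moved the log2 fold change of C1qb between the white depots over -2.31 to -2.14.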

How the results depend on the processing

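For iWAT over eWAT adipocytes, 7 members passed the threshold, and under the alternatives between 5 (lane 1 alone, or a log2 fold change of at least 1 also asked) and 8 did. Over BAT, all 9 passed in both comparisons under every alternative except the fold limit, which left 8. With a replicate block on the number in the titles, 8 members passed between the white depots, since Cfb was then called (log2 fold change 0.71, adjusted p = 0.0269, edgeR), and 9 in each comparison with BAT. Same-numbered samples did not deviate together throughout, with correlations of -0.302 to 0.483 between the white depots, so the number is not taken to pair them. Leaving out 1 sample at a time gave 6 to 8 members between the white depots and 9 over BAT. The direction of a member turned in 1 case, C3 between the white depots in lane 2 alone (0.26), and the cause was not tested. Of 585 combinations of member, comparison and alternative, 560 kept direction and side of the threshold, 16 lost the call and 8 gained it. The C1q chains, Cfp and C3ar1 kept every call and direction between the white depots. Lane-only fits rest on 2 against 4 samples, and the few reads of C2 and C3ar1 in BAT limit their precision.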
